A study of Mus musculus with 18 samples.

Results

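The Hox genes, a family of homeobox transcription factors, were followed here through RNA sequencing of mouse distal colon. Every gene whose symbol is Hox with a cluster letter a to d and a paralog number was taken, and 28 of the 16321 genes in the deposited gene tables met that rule. The mouse annotation holds 39 such genes in 4 clusters, and the other 11 were read from the deposited transcript tables alone. The study sampled biopsies about 0.5 cm long from BALB/c mice, with 18 libraries in 6 groups of 3 mice. Wild type mice were 6 weeks old, and Il10KO mice, which lack the anti-inflammatory cytokine interleukin 10 and develop colitis, were 6, 8, 10, 12 or 14 weeks old. All groups share the BALB/c background. No wild type library older than week 6 was analysed, so age and colitis cannot be told apart in the later groups. All wild type mice came from cage G and no Il10KO mouse did, so cage and genotype cannot be told apart either.

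Hox genes lie in 4 clusters that arose by duplication, and genes at the same place in different clusters form a paralog group. In the embryo, the genes at the paralog 1 end of a cluster act towards the head and those at the paralog 13 end act towards the tail, and the gut keeps part of that pattern in adult life. Their proteins bind DNA together with the Pbx and Meis cofactors, Cdx factors and retinoic acid act upstream of them in the embryo, and Polycomb proteins keep silent Hox genes shut.

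The libraries held 26495521 to 35497101 assigned counts. Interleukin 10 transcripts were at the detection limit: the wild type libraries had 1, 0 and 3 estimated counts and all 15 Il10KO libraries had 0, which allows up to 3 counts in each, so the knockout could not be checked at this depth. RNA integrity numbers (RIN) ran from 8.4 to 9.3 except for Il10KO week 14 replicate 2 (6.5) and replicate 3 (5.8). Those 2 libraries also had the lowest scaling factors, at 0.581 and 0.680, against up to 1.19 elsewhere. A smooth muscle score, the mean log2 CPM (counts scaled to a common library size) of 12 contractile genes, was 5.56 in Il10KO week 10 replicate 1, 5.91 and 6.37 in Il10KO week 14 replicates 2 and 3, and 6.87 to 8.53 in the other 15. In whole biopsies, fewer cells of a type and less RNA per cell cannot be told apart. Marker genes of gut position were read. Cdx1, an intestinal factor, stood at a median of 287 TPM (transcript abundance scaled by length and library size), and Cdx2 at 18.7. Pdx1 of the duodenum stood at 0.245 and Sox2 of the foregut at 0.122. These genes do not tell distal colon from other parts of the intestine beyond the duodenum. Krt5, a keratin of the squamous lining below the rectum, never passed 0.415 TPM. Of other squamous genes, Dsg3 and Dsc3 reached at most 0.237 and 0.641 TPM, while Krt13, Krt14 and Pkp1 reached 7.41, 5.90 and 16.1. So these markers do not show whether squamous lining was part of the biopsies.

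Posterior Hox genes had the highest levels. TPM corrects for transcript length and was used to compare genes. Hoxb13 averaged 215 TPM over the 18 libraries (range 51.0 to 391) and Hoxd13 averaged 102 TPM (41.8 to 139). These 2 posterior genes ranked highest of the 28, and Hoxb13 exceeded Hoxd13 in 17 of the 18 libraries. Hoxa10 (mean 39.6 TPM) and Hoxa13 (33.8 TPM) came next and did not separate, since Hoxa10 was the higher in 10 of 18. Hoxd11 (22.0 TPM), Hoxa9 (19.9 TPM) and Hoxa7 (18.9 TPM) also overlapped, with Hoxd11 above Hoxa9 in 11 of 18 and Hoxa9 above Hoxa7 in 10 of 18. Hoxa7 stood above Hoxb9 (11.5 TPM) in all 18 libraries. Hoxd10 (8.48 TPM), Hoxd12 (8.44 TPM) and Hoxa11 (7.24 TPM) traded ranks from library to library. The means fell to 5.19 TPM for Hoxa5, 3.13 for Hoxa3 and 2.33 for Hoxb5, and the remaining 14 genes of the table averaged from 1.99 TPM for Hoxb7 down to 0.124 TPM for Hoxd3.

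**Figure D1:**
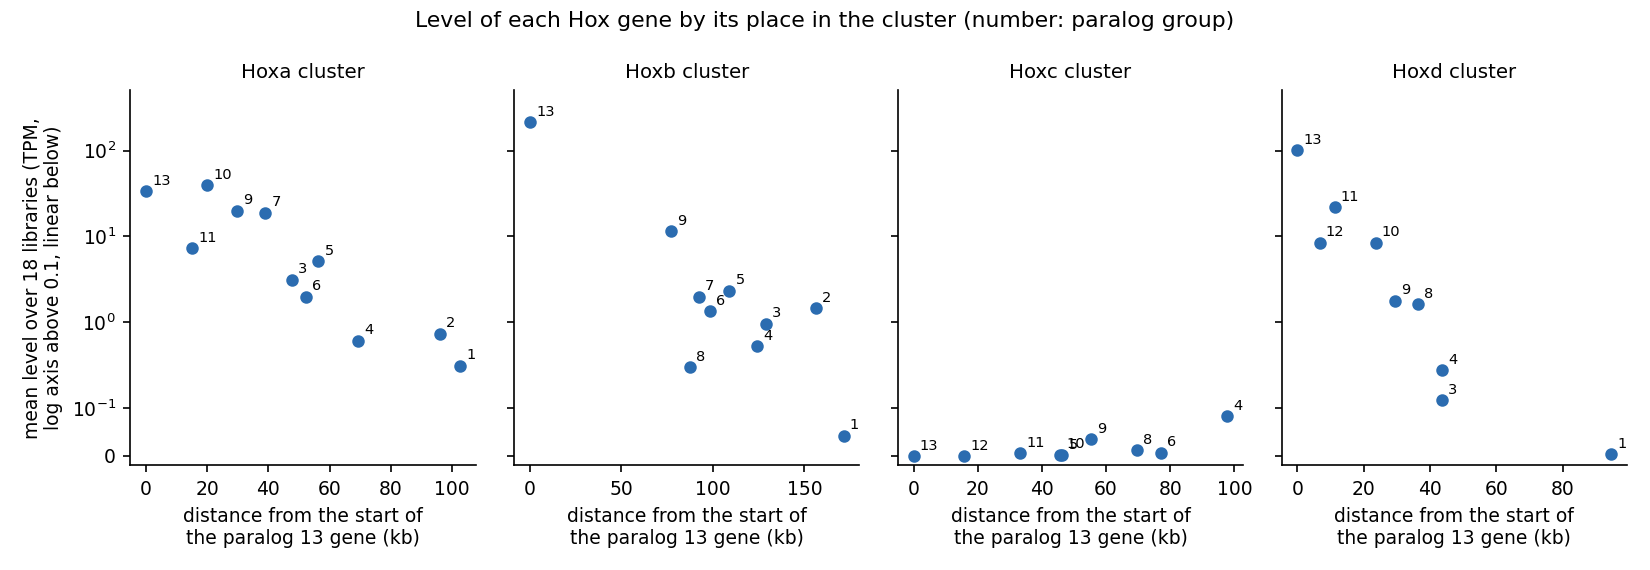
Mean level of each of the 39 Hox genes over 18 libraries, in TPM (log axis above 0.1, linear below), against distance in kb from the start of the paralog 13 gene of its cluster. The numbers beside the points are paralog groups: levels in clusters a, b and d run from high at paralog 13 to low at paralog 1, and all 9 genes of cluster c lie below 0.1 TPM.

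Summed by paralog group, group 13 averaged 351 TPM, group 10 48.1, group 9 33.3, group 11 29.2 and group 7 20.9. Group 12, which in cluster d sits beside group 13, averaged 8.44 TPM. Paralog group 13 held 60.2% to 72.7% of all Hox TPM in a library, groups 9 to 12 held 19.9% to 32.4%, groups 5 to 8 held 5.02% to 8.25% and groups 1 to 4 held 1.07% to 2.32%. These ranges do not overlap in any pair of libraries, across both genotypes and all ages. The fall along a cluster was uneven. Hoxd12 starts 6.70 kb from Hoxd13 and averaged 8.44 TPM against 102, whereas Hoxa10 lies farther from Hoxa13 than Hoxa11 does and averaged 39.6 TPM against 7.24 for Hoxa11. The 2 coding transcripts of Hoxa10 averaged only 8.59 and 5.06 TPM, and the coding transcript of Hoxa11 averaged 7.20. Hoxb13 stands 77.1 kb from Hoxb9, its nearest cluster member, and alone held 29.2% to 54.6% of Hox TPM.

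The clusters differed as wholes. Cluster b (GRCm38 chr11:96194316-96368256) held a median of 45.8% of Hox TPM, cluster d (chr2:74668310-74765142) 28.2% and cluster a (chr6:52155590-52260880) 26.1%. Cluster c (chr15:102921103-103036852), whose 9 genes include a full set of posterior paralogs, held 0.0251%. Its 9 genes together had 127 estimated counts over the 18 libraries, between 0 and 18 in a library. Hoxc4 at the anterior end took 69 of the 127 and Hoxc9 took 34, while Hoxc12 and Hoxc13 had 0, which allows up to 3 counts in a library. So the low level of cluster c extended to its paralog 13 gene, whereas in each of the other 3 clusters that gene was among the highest. Hoxb1 (39 counts in all) and Hoxd1 (2 counts), the most anterior genes of clusters b and d, were as low. Cluster c stayed low at every age, with 36 counts over the 3 wild type libraries and 22, 20, 13, 27 and 9 over the Il10KO libraries of weeks 6, 8, 10, 12 and 14.

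RefSeq promoter sequences of build GRCm38.p6 were matched for 22 of the 39 genes, in 24 entries that each hold 250 bases before and 50 after a start site. Hoxb13 and Hoxc13 had no entry. The 24 entries carried a median of 14.5 CpG dinucleotides, against 7 over all 32851 promoters, and Hoxa13 (45) and Hoxd13 (37) had the most. The upstream stretches of 3 genes are shown because Hoxd12 and Hoxa11 were called lower at week 10 and Hoxd13, beside Hoxd12, was not. CpG dinucleotides are in capitals. They lie on chr2:74667975-74668224 (forward), chr2:74674763-74675012 (forward) and chr6:52245811-52246060 (reverse), in this order.
Hoxd13: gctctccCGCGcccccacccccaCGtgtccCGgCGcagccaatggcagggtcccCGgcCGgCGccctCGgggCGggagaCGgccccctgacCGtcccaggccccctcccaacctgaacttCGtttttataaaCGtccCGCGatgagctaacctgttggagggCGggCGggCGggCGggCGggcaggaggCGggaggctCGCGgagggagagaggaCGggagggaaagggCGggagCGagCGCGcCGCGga
Hoxd12: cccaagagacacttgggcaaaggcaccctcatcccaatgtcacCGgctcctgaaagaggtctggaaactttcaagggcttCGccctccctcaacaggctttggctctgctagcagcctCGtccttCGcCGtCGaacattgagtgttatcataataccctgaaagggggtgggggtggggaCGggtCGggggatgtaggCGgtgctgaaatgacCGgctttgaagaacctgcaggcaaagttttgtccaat
Hoxa11: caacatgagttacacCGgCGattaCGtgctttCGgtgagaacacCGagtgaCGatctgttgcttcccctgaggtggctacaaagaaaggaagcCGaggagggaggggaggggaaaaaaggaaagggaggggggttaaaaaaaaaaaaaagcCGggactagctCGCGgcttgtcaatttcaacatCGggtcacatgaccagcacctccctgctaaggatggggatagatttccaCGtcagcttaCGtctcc
The Hoxd13 stretch has 31 CpG in 250 bases, against 10 for Hoxd12 and 13 for Hoxa11. These 3 do not stand for the other members. Over whole entries, Hoxa5, Hoxa3 and Hoxa7, also called lower at week 10, had 29, 20 and 9 CpG. Entries of genes not called then ran from 4 for Hoxa9 to 45 for Hoxa13. A relation of CpG count to the calls was not tested. TTTATG, the core that Cdx factors bind, occurred on either strand in 5 of 24 Hox entries (20.8%), against 11.85% of all promoters. CAATAAA, a site type of paralog 13 proteins, occurred in 2 (8.33%), against 4.60%. Neither was found in the entries of the 3 genes shown.

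Loss of Il10 at week 6 left Hox levels without a detected change. Read counts were compared in edgeR's quasi-likelihood test with trimmed-mean (TMM) scaling and Benjamini-Hochberg adjustment over 16300 genes, and a gene was called at an adjusted p under 0.05. At week 6, 0 of the 28 Hox genes were called, with a background of 0% of all genes. At an unadjusted p under 0.05 there was 1, Hoxb7 (background 2.42%), and DESeq2 also called 0. The fold changes leaned to lower values in the knockout: 25 of 28 were negative, with a median log2 change of -0.18 against -0.01 for all genes. In the same comparison 11 of 12 smooth muscle genes (median -0.31) and 11 of 12 enteric neuron and glia genes (median -0.38) were negative, and smooth muscle scores were 8.42 to 8.53 in wild type and 8.13 to 8.22 in Il10KO. Their part in the Hox values was not tested. Hoxb13, the most posterior gene of cluster b, had 563, 428 and 420 CPM in wild type and 339, 401 and 397 in Il10KO. The groups did not overlap. Hoxb13, Hoxb4, Hoxb7 and Hoxd9 lay below wild type in all 3 libraries, 4 of 28 against 13.1% of all genes, and 0 lay above, against 12.3%. The log2 change of Hoxb13 was -0.31 (SE 0.22, adjusted p 1 by edgeR).

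Hox levels were next followed with age. The comparisons of weeks 8, 10, 12 and 14 all use the same 3 Il10KO week 6 libraries as controls, so they are not independent of each other. At week 8, 0 of 28 Hox genes were called in edgeR (background 0.0675%), 0 had an unadjusted p under 0.05 (background 7.03%) and DESeq2 called 0. At week 12, 0 of 28 were called in edgeR (background 1.85%), 8 had an unadjusted p under 0.05 (background 32.4%) and DESeq2 called 3. Without Il10KO week 14 replicate 1, edgeR called 5 at week 12. For these 3 and 5 calls the share of all genes in the same run is not given here. The week 12 median was 0.18 on the log2 scale, and 19 of 28 changes were positive. Of the 28, 10 lay above week 6 in all 3 libraries, against 32.8% of all genes, and 2 below, against 32.9%.

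The highest genes were not called at weeks 8 and 12. Hoxb13 had 321, 475 and 406 CPM at week 8 and 470, 353 and 322 at week 12, and Hoxd13 had 165, 206 and 246, then 252, 229 and 196. Hoxa13 had 64.3, 69.3 and 72.6 CPM at week 8 and 64.2, 65.3 and 52.1 at week 12. Hoxa10, a regulator of the posterior trunk, had 36.8, 48.8 and 46.0 CPM at week 8 and 62.8, 75.1 and 55.2 at week 12, the latter all above week 6 but not called (log2 change 0.71, adjusted p 0.107, edgeR). Hoxd11, a gene of limb and kidney patterning, had 32.5, 31.3 and 33.8 CPM in wild type and 29.7, 33.7 and 36.4 in Il10KO at week 6. In later Il10KO groups Hoxd11 had 27.7, 38.8 and 42.0 CPM at week 8 and 24.7, 35.6 and 36.3 CPM at week 10. It had 41.0, 31.9 and 30.3 CPM at week 12 and 42.4, 45.4 and 49.2 CPM at week 14. In CPM the week 14 values of Hoxd11 stood clear of week 6 but did not pass the test (log2 change 0.46, adjusted p 0.0834, edgeR). In TPM the direction was the opposite, with 26.2, 25.5 and 31.1 at week 6 and 28.9, 6.67 and 10.2 at week 14.

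At week 10 the Hox genes called were all lower, and Hoxd13 was among the few with a positive change on TMM-scaled counts. Lower calls numbered 8 of 28 and higher calls 0 (background 9.48% lower, 24.0% in either direction), and 23 of 28 log2 changes were negative, with a median of -0.39 against 0.01 for all genes. As a share of all counts of a library, Hox reads made up 0.0920% to 0.0978% at week 6 and 0.0559% to 0.0703% at week 10. With scaling by library size alone, the week 10 median log2 change was -0.645 for Hox genes and -0.255 for all genes. The called genes spanned the axis, from Hoxa3 and Hoxa4 over Hoxa5, Hoxa7 and Hoxb9 to Hoxa11, Hoxd12 and Hoxb13. In all 3 libraries 13 of 28 lay below week 6, against 30.3% of all genes, and 3 above (Hoxa10, Hoxb7 and Hoxd13), against 27.5%. By cluster, 5 of 11 Hoxa, 2 of 9 Hoxb and 1 of 8 Hoxd genes were called.

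Hoxb13 had 339, 401 and 397 CPM at week 6 and 202, 242 and 236 at week 10. On this scale all 3 week 10 libraries lay below all other libraries. In TPM, week 14 replicates 2 and 3 (51.0 and 60.1) were lower than week 10 (84.2 to 148), and by library size alone the groups also overlapped. The log2 change was -0.74 (SE 0.22, adjusted p 0.0293, edgeR). Hoxd12, a posterior regulator of cluster d, went from 14.1, 16.3 and 15.6 CPM to 4.84, 6.93 and 8.46, without overlap. Its log2 change was -1.18 (SE 0.40, adjusted p 0.0436, edgeR). Hoxa11, known from limb and reproductive tract, went from 16.9, 11.7 and 11.3 CPM to 5.26, 7.41 and 8.52, again without overlap, a log2 change of -0.91 (SE 0.30, adjusted p 0.0388, edgeR). Low values of both genes were not confined to week 10. At week 14 Hoxd12 had 21.5, 7.43 and 5.77 CPM and Hoxa11 had 13.6, 9.42 and 6.34.

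Hoxa7 had 24.7, 24.0 and 24.1 CPM at week 6, a spread narrower than in most members. It had 13.2, 13.9 and 18.6 CPM at week 10, all lower, and its log2 change was -0.67 (SE 0.20, adjusted p 0.0295, edgeR). Hoxa5, which patterns the foregut and lung, went from 8.26, 7.68 and 7.58 CPM to 3.84, 5.77 and 3.67, without overlap (log2 change -0.82, adjusted p 0.0374, edgeR). Hoxa4 was lowest of the called genes, with 32, 22 and 26 counts at week 6 and 6, 10 and 8 at week 10, and its log2 change of -1.60 (SE 0.51, adjusted p 0.0353, edgeR) rests on these few counts. Hoxa3 (-0.96, adjusted p 0.0382, edgeR) and Hoxb9 (-0.89, adjusted p 0.0467, edgeR) completed the 8.

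Hoxd13, a regulator of the most posterior structures, had 175, 189 and 181 CPM at week 6 and 232, 240 and 225 at week 10. On this scale the 3 week 10 libraries lay above the 3 week 6 libraries, but the log2 change of 0.36 (SE 0.19) did not pass the test (adjusted p 0.154, edgeR). In TPM Hoxd13 had 113, 116 and 117 at week 6 and 84.6, 92.2 and 122 at week 10. Replicates 1 and 2 of week 10 thus lay below week 6 and replicate 3 above, when the median of all genes shifted by -0.515 (log2 of TPM + 0.1). The third posterior gene, Hoxa13, had 55.9, 73.1 and 58.7 CPM at week 6 and 35.5, 55.4 and 54.4 at week 10, with a log2 change of -0.37 (adjusted p 0.202, edgeR).

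**Figure D2:**
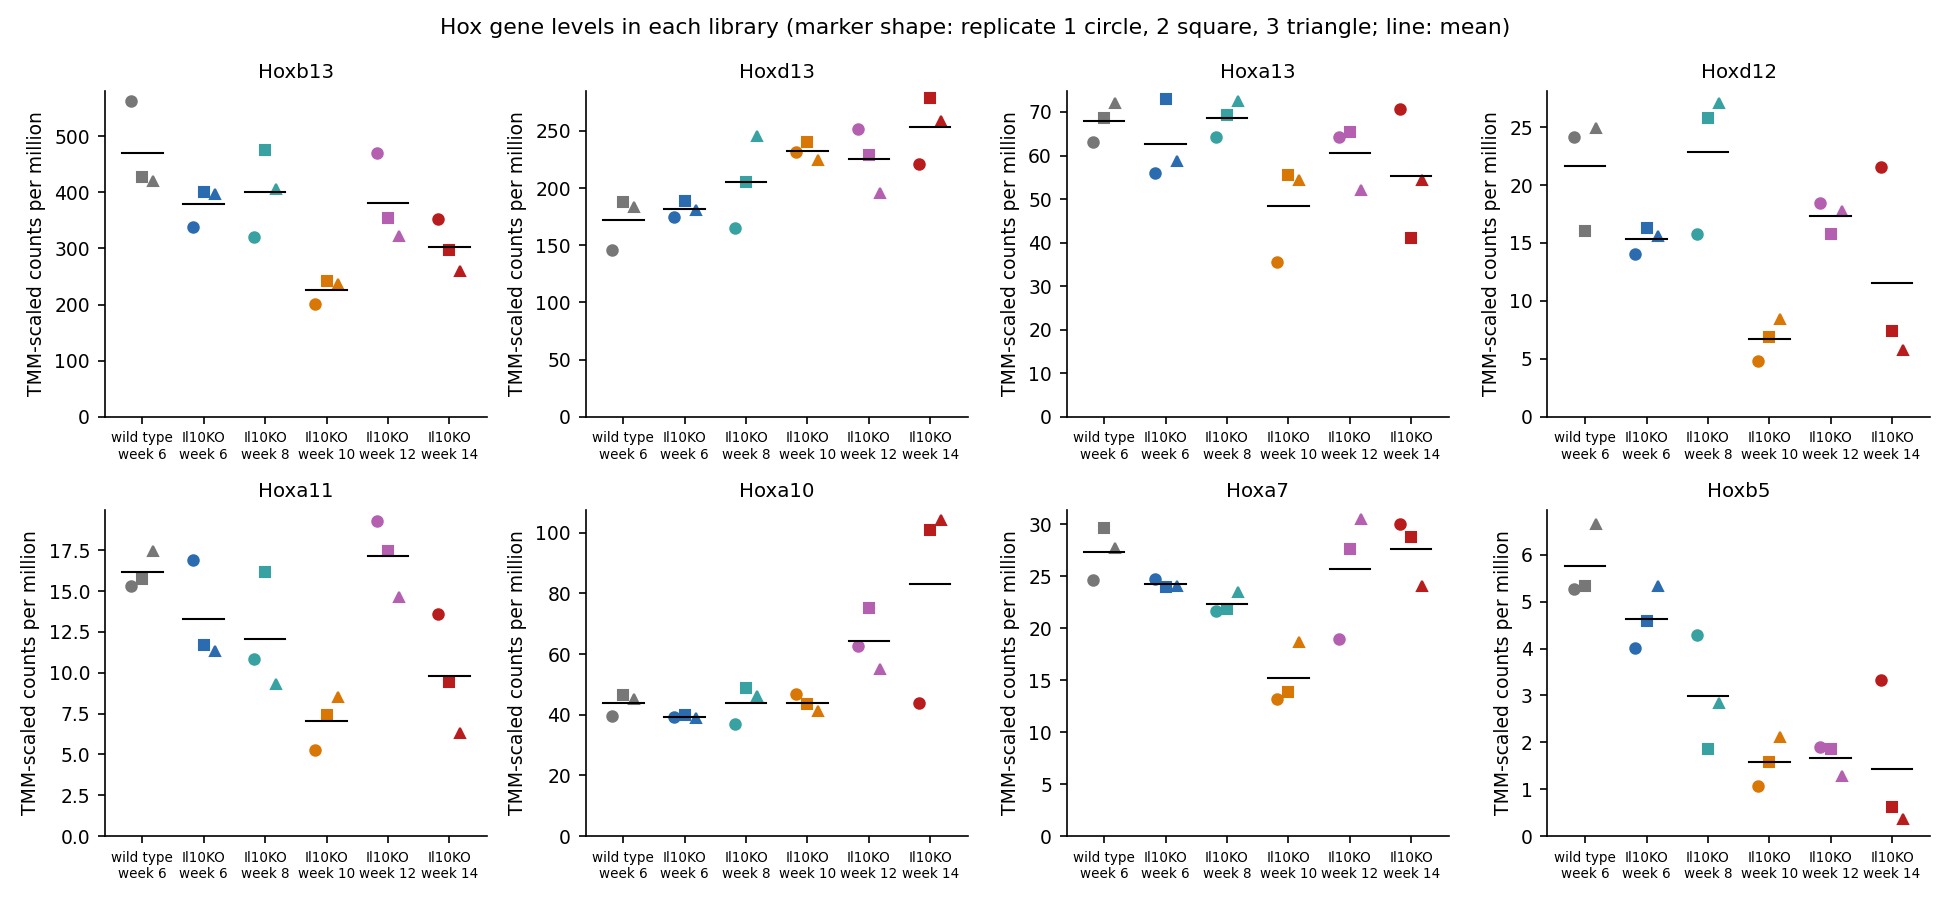
TMM-scaled CPM of 8 Hox genes in each of 18 libraries by group, where each symbol is a library and lines are group means. At week 10 Hoxb13, Hoxd12, Hoxa11 and Hoxa7 are lower than at Il10KO week 6, and Hoxd13 stands at 225 to 240 CPM. In week 14 replicates 2 and 3 Hoxd12 (7.43 and 5.77 CPM) and Hoxa11 (9.42 and 6.34) are also low, and Hoxa10 reaches 101 and 104 CPM.

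The 8 week 10 calls were close to the threshold. Without Il10KO week 10 replicate 1 or any one of the 3 Il10KO week 6 libraries the count fell to 0, and without week 10 replicate 2 to 1. It fell to between 3 and 5 without any one wild type library, Il10KO week 10 replicate 3, or week 12 replicate 2 or 3, and to 4 with scaling by library size alone. With cage as a term it was 0. No direction of the 8 genes reversed under any alternative run.

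Other cell types moved at week 10 as well. Of 12 smooth muscle genes 0 were called, yet all 12 log2 changes were negative (median -1.06). Lower calls took 8 of 12 fibroblast, 5 of 12 enteric neuron and glia, 3 of 12 endothelium and 2 of 7 adipocyte genes (background 9.48%). Higher calls took 4 of 12 leukocyte and 2 of 12 colon epithelium genes (background 14.6%). The score of the 12 colon epithelium genes was 9.63 to 9.89 at week 6 and 9.80 to 10.2 at week 10. Smooth muscle scores were 8.13 to 8.22 at week 6 and 5.56, 7.36 and 7.75 at week 10, and leukocyte scores 2.38 to 2.76 and 5.53, 4.69 and 3.11. The part of these shifts in the Hox changes was not tested gene by gene. Removing the 3 libraries with the lowest smooth muscle score, week 10 replicate 1 among them, gave 9 lower and 1 higher Hox call at week 10, when the calls over all genes went from 3917 to 6633.

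Ratios between Hox genes of the same library need no scaling between libraries, and they were examined after the values above had been seen, so they are given as description with no test. With 3 libraries a group, an exact permutation test could not go below 0.1. The ratio of Hoxb13 to Hoxd13 counts was 3.87, 2.28 and 2.28 in wild type and 1.94 to 2.19 in Il10KO at week 6. It was 1.65 to 2.31 at week 8, 0.870 to 1.05 at week 10, 1.54 to 1.86 at week 12 and 1.00 to 1.59 at week 14. The week 10 ratios were below those of every library of weeks 6, 8 and 12, a difference from week 6 of -1.10 on the log2 scale. Hoxb13 exchanged its first rank with Hoxd13 only in week 10 replicate 1, where they stood at 84.2 and 84.6 TPM.

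The ratio to Hoxd13 was lower at week 10 for most members. It lay below week 6 in all 3 libraries for 21 of the 27 other Hox genes, against 42.6% of all genes, and above for 0, against 16.5%. At week 14 it lay below for 11 of 27, against 44.5%, and above for 1, Hoxb7, against 4.69%. In Il10KO at week 6 it lay below wild type for 7 of 27, against 12.1%, and above for 0, against 5.50%. Hoxd12, next to Hoxd13 in the cluster, had a ratio of 0.0804 to 0.0864 at week 6 and of 0.0209 to 0.0376 at week 10 (log2 difference -1.57). Hoxa11 went from 0.0620 to 0.0967 down to 0.0227 to 0.0379 (-1.27), and Hoxa13 from 0.319 to 0.387 down to 0.153 to 0.242 (-0.74). Hoxd10 kept overlapping ratios, at 0.0478 to 0.0612 and 0.0382 to 0.0722 (-0.08). Of the other cluster d genes, Hoxd3, Hoxd8, Hoxd9 and Hoxd11 also lay below week 6 in all 3 libraries and Hoxd4 overlapped. Hoxd3 had 8, 5 and 13 counts at week 6 and 0, 4 and 3 at week 10. Hoxd4 had 9, 8 and 4, then 19, 9 and 4, so both rest on few counts. Apart from them, Hoxd8 and Hoxd9 lie farther from Hoxd13 than Hoxd10 does, so separation did not follow distance from Hoxd13. Week 10 replicate 3 had a smooth muscle score of 7.75, against 7.16 to 7.90 at week 8 and 6.87 to 7.66 at week 12. Its Hoxb13 ratio was 1.05 and its Hoxd12 ratio 0.0376. Low ratios also occurred at week 14, in replicates 2 and 3, with smooth muscle scores of 5.91 and 6.37. There Hoxd12 had 0.0266 and 0.0222, Hoxa11 0.0338 and 0.0245, and Hoxa13 0.148 and 0.210. Week 14 replicate 1 had 0.0972, 0.0615 and 0.319 for these genes. The part of muscle content in the ratios was not tested.

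**Figure D3:**
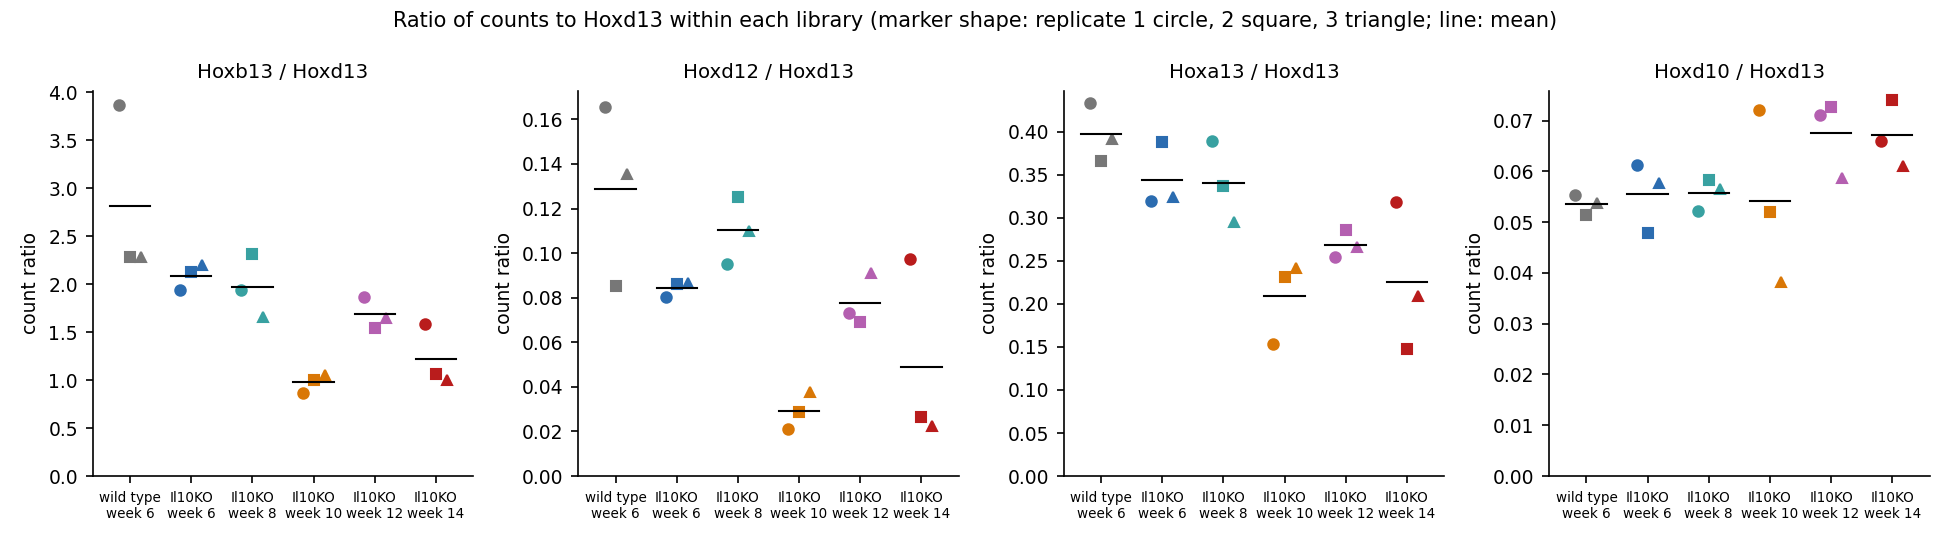
Ratio of the counts of Hoxb13, Hoxd12, Hoxa13 and Hoxd10 to those of Hoxd13 in the same library, by group (linear axes from 0), where each symbol is a library and lines are means. The week 10 ratios of Hoxb13 (0.870 to 1.05) and Hoxd12 (0.0209 to 0.0376) lie below all libraries of weeks 6 and 8, and those of Hoxd10 overlap with them. Hoxd12 is also low in week 14 replicates 2 and 3 (0.0266 and 0.0222).

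At week 14 the Hox genes were called in both directions on TMM-scaled counts. Higher calls numbered 4 of 28 (background 24.5% of genes) and lower calls 1 (background 8.56%, and 33.1% in either direction), with a median log2 change of 0.09 against -0.06 for all genes. Hoxb7, Hoxa10, Hoxa9 and Hoxd10 rose and Hoxb5 fell. In all 3 libraries 7 of 28 lay above week 6, against 19.2% of all genes, and 5 below, against 21.5%. For Hoxa9, Hoxa10, Hoxd10 and Hoxd13 the direction was the opposite on the TPM scale, and for Hoxa9 also with library size alone, and on the TPM scale the median of all genes itself shifted by -1.15 at week 14 and by -0.52 (log2 of TPM + 0.1) at week 10. On that scale 27 of 28 Hox changes were negative at week 14, with a Hox median of -1.14, and with library size alone the Hox median was -0.47 against -0.56 for all genes. Relative to the TPM shift all 4 were higher: their TPM changes were -1.03, -0.26, -0.53 and -0.82.

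Hoxa10 had 39.2, 40.0 and 39 CPM at week 6 and 43.8, 101 and 104 at week 14. The rise was carried by replicates 2 and 3, the libraries of RIN 6.5 and 5.8 with low smooth muscle scores. The log2 change was 1.07 (SE 0.26, adjusted p 0.0082, edgeR) with all libraries and 0.15 without those 2, when the call ended. With RIN as a covariate it was 0.27, also not called, and the part of muscle content in this change was not tested. Hoxb7, a gene of the middle of its cluster, had 28, 37 and 27 counts at week 6 and 67, 62 and 57 at week 14, without overlap. Its log2 change was 1.57 (SE 0.35, adjusted p 0.0065, edgeR), and 0.88 without the 2 libraries, also no longer called.

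Hoxa9 had 25.7, 25.5 and 23.2 CPM at week 6 and 27.5, 39.6 and 43.1 at week 14 (log2 change 0.57, adjusted p 0.0423, edgeR). Hoxd10 had 10.7, 9.01 and 10.4 CPM and then 14.6, 20.7 and 15.8 (0.76, adjusted p 0.0423, edgeR). Both stood higher in all 3 week 14 libraries. Hoxb5, which in the gut is known from the enteric nervous system, fell from 4.01, 4.58 and 5.33 CPM to 3.32, 0.624 and 0.364, with 10 and 7 counts in the last 2 libraries. Its log2 change was -1.64 (SE 0.59, adjusted p 0.0439, edgeR). Enteric neuron and glia genes were lower in the same libraries, with scores of 0.834 and 0.365 against 2.28 in replicate 1 and 2.41 to 2.52 at week 6, and their part in the Hoxb5 value was not tested. The paralog 13 genes were not called at week 14: Hoxd13 had a log2 change of 0.48 (adjusted p 0.0594, edgeR), Hoxb13 of -0.32 and Hoxa13 of -0.18.

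Without the 2 libraries of low RIN, or with RIN or cage as a term, or with library size alone, 0 Hox genes were called at week 14. Calls over all genes moved as well, from 3993 higher and 1395 lower to 1600 and 337 with library size alone. The Hox counts of this paragraph lack the share of all genes in the same run, so they show neither an excess nor a lack of Hox calls. Without week 14 replicate 1 the count of Hox genes was 13. It was 2 without replicate 2, replicate 3, any one Il10KO week 6 library, wild type replicate 2 or 3, Il10KO week 10 replicate 2, or week 12 replicate 1 or 2, and 3 without wild type replicate 1.

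**Figure D4:**
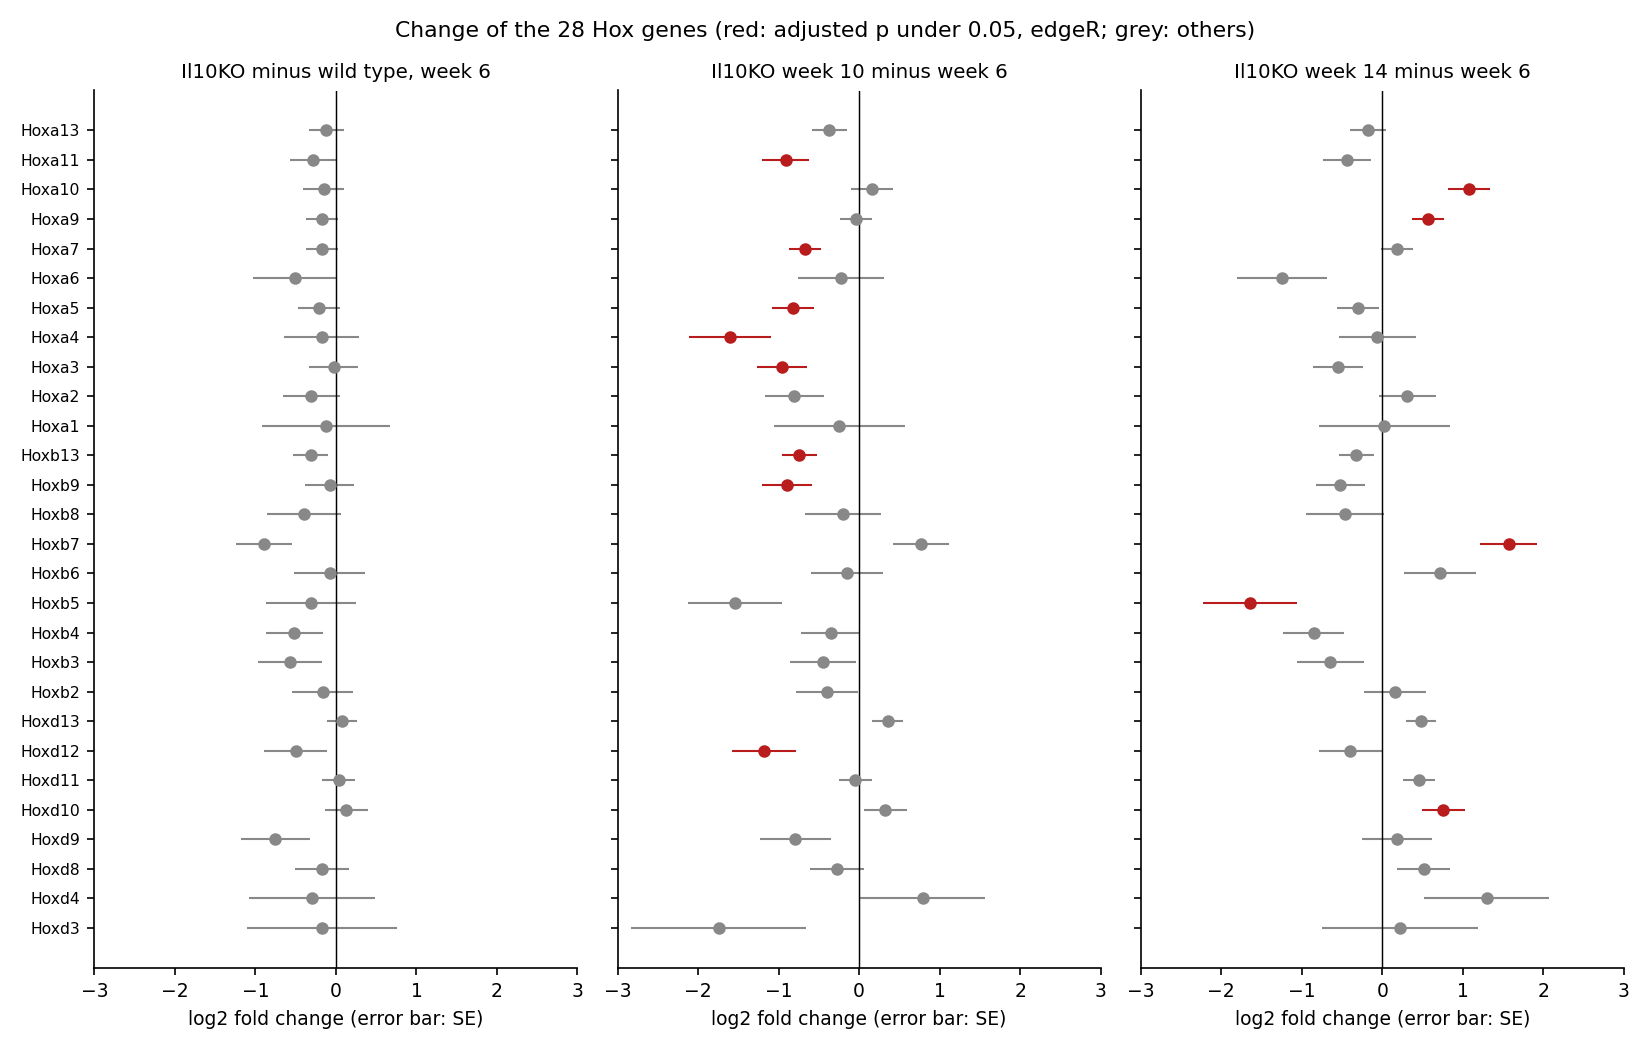
Log2 fold change with standard error of 28 Hox genes in 3 comparisons of TMM-scaled counts, red where the edgeR adjusted p was under 0.05. No gene is red for genotype at week 6, 8 are red and lower at week 10, and 4 are red and higher and 1 lower at week 14, of which Hoxa9, Hoxa10 and Hoxd10 turn negative on the TPM scale and Hoxa9 also with library size alone.

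The transcript tables divide the Hoxa10 counts by transcript. The annotation lists 4 Hoxa10 transcripts, 2 coding and 2 called processed transcripts without a coding sequence. Over the series the coding pair took 38.3% of Hoxa10 counts, and the processed transcript Hoxa10-203 (chr6:52231199-52233324, reverse strand) took 50.5%. The share of Hoxa10-203 was 29.2% to 38.5% in wild type, 38.8% to 43.9% at Il10KO week 6, and 53.8%, 77.9% and 78.2% at week 14. It was also 73.0% in week 10 replicate 1, a library of RIN 8.5 whose smooth muscle score was the lowest of all. The part of RNA integrity or muscle content in this share was not tested.

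Coding Hoxa10 transcripts had 20.2, 18.6 and 18.8 CPM at week 6 and 15.9, 15.4 and 15.3 at week 14, so they were lower in all 3 libraries (log2 difference of means -0.30). The processed transcripts had 19.0, 21.4 and 20.2 CPM at week 6 and 27.9, 85.5 and 89.0 at week 14 (log2 difference 1.56). The higher gene-level value of Hoxa10 at week 14 lay in the counts assigned to processed transcripts. At week 10 the coding transcripts stood at 7.66, 14.5 and 17.4 CPM, below week 6, while the gene as a whole had changed by 0.16 on the log2 scale. These transcript values were examined after the gene values and carry no test. Kallisto divides reads that several transcripts share, so the split is an estimate.

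**Figure D5:**
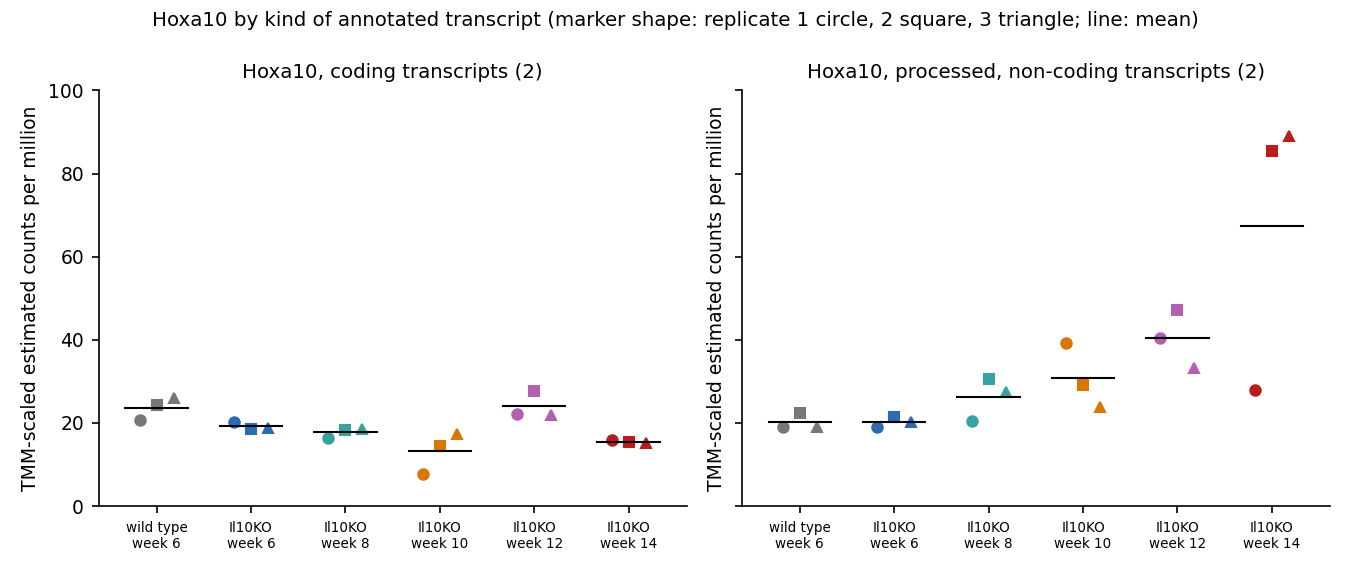
TMM-scaled CPM, from estimated counts, of the 2 coding (left) and 2 processed (right) Hoxa10 transcripts in each library by group, where each symbol is a library and lines are means. Coding transcripts stay between 15.3 and 15.9 CPM at week 14, while processed transcripts reach 85.5 and 89.0 in 2 libraries.

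Hoxd11 was also divided between a coding and a processed transcript. Its coding transcript took 26.9% of counts over the series (13.6% to 38.3%). The processed transcript had 20.0 to 25.1 CPM at week 6 and 32.5 to 41.3 at week 14, and the coding one had 8.98 to 11.3 and 6.19 to 9.93 CPM. The coding transcripts of Hoxa9 had 20.6 to 23.4 CPM at week 6 and 24.8 to 36.1 at week 14. For Hoxa7 the coding transcripts had 17.8 to 19.7 CPM at week 6 and 9.39 to 14.5 at week 10, without overlap. Hoxb13, Hoxd13, Hoxd12 and Hoxd10 each have 1 annotated transcript, which is coding. Antisense genes run through the clusters and library strand is not given in the sources used here, so reads of a Hox gene and of an antisense partner cannot be told apart.

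Across the 5 ages of Il10KO mice together, 8 of 28 Hox genes differed (edgeR, background 27.4%), namely Hoxa2, Hoxa6, Hoxa7, Hoxa10, Hoxa11, Hoxb7, Hoxb13 and Hoxd12. Hoxa6, a gene of the middle of its cluster, had 14, 20 and 40 counts at week 6. It had 58, 79 and 70 counts at week 12 but 20, 2 and 5 in the week 14 libraries. In CPM the 3 week 12 libraries of Hoxa6 lay above all others, but in TPM week 12 replicate 1 (2.37) lay below several, such as Il10KO week 6 replicate 3 (3.06). Hoxa2, which patterns the hindbrain, had 12 to 17 counts at week 10 and 45 to 56 at week 12. The count was 15 without Il10KO week 14 replicate 1, 1 without any one Il10KO week 6 library or week 14 replicate 2, and 2 to 5 without wild type replicate 3, Il10KO week 10 replicate 1 or 2, any week 12 library, or week 14 replicate 3. It was 13 in DESeq2, 5 with the replicate number as a block, 1 with library size alone and 0 with cage as a term. The share of all genes that differed in each of these runs is not given here.

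The smooth muscle score was then fitted beside group, to ask which Hox genes varied with muscle content inside groups. Of 28 Hox genes 8 had a slope that passed (background 51.0%), 5 positive (background 27.9%) and 3 negative (background 23.0%). Hoxb5 had the steepest, 0.81 log2 units per unit of score (SE 0.20, adjusted p 0.0038, edgeR), followed by Hoxd12 (0.48, adjusted p 0.0132, edgeR), Hoxb9 (0.35), Hoxa11 (0.31) and Hoxa13 (0.27). Hoxa10 (-0.33, adjusted p 0.0151, edgeR), Hoxd10 (-0.27) and Hoxa9 (-0.21) had negative slopes on counts, which turned positive on the TPM scale, and that of Hoxa9 also with library size alone. Hoxb13 (0.12, adjusted p 0.316, edgeR) and Hoxd13 (-0.09, adjusted p 0.426, edgeR) had none that passed.

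These slopes rest on few libraries. The count was 0 without Il10KO week 14 replicate 1, without the 2 libraries of low RIN or without the 3 of lowest muscle score, and the slopes of Hoxa13 and Hoxd12 then turned to -0.09 and -0.31 in the last of these. It was 4 without week 14 replicate 2 and 5 without wild type replicate 3, Il10KO week 6 replicate 2 or 3, or week 10 replicate 3. For a colon epithelium score 0 of 28 slopes passed in edgeR (background 0%) or in DESeq2, 2 had an unadjusted p under 0.05 (background 6.24%), and 8 passed with library size alone.

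Genes that work with the Hox proteins or near their clusters were read from lists. Of 10 Pbx, Meis and related cofactors, 2 fell at week 10 (background 9.48%) and 0 rose (background 14.6%), namely Pbx2 (log2 change -0.70, adjusted p 0.0306, edgeR) and Pbx3 (-1.19, adjusted p 0.0408, edgeR), and 9 of 10 changes were negative. At week 14, 1 of the 10, Pknox1, fell (-1.14, adjusted p 0.0364, edgeR), against a background of 8.56% lower. Of the 10, 7 had a positive slope on the smooth muscle score that passed (background 27.9%).

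Of 29 upstream and chromatin regulators, 2 rose and 4 fell at week 10 (background 14.6% and 9.48%), and 2 rose and 7 fell at week 14 (background 24.5% and 8.56%). Aldh1a1, which makes retinoic acid, fell at week 10 (log2 change -1.61, adjusted p 0.0387, edgeR), as did Pcgf2, a Polycomb ring finger protein (-1.24, adjusted p 0.0216, edgeR). Rara, a retinoic acid receptor, fell at week 10 (-1.15, adjusted p 0.0301, edgeR) and week 14 (-1.11, adjusted p 0.0259, edgeR). At week 14 Kmt2a, a histone methyltransferase that keeps Hox genes active in development, fell (-1.37, adjusted p 0.0418, edgeR), Rarg, another retinoic acid receptor, fell (-1.30, adjusted p 0.0470, edgeR), and Bmi1, a Polycomb subunit, rose (1.23, adjusted p 0.0183, edgeR).

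Of 13 factors that mark position along the gut, 0 were called at week 10 in edgeR (background 24.0%). At week 14, 1 of the 13, Gata6, fell (log2 change -1.0, adjusted p 0.0382, edgeR), against a background of 8.56% lower. Cdx1, an intestinal relative of the Hox genes, had a log2 change of 0.04 at week 10 and -0.16 at week 14. Cdx2 had -1.11 (adjusted p 0.0666, edgeR) and -0.20. Neither gene passed. Of 10 squamous genes, Krt6a was called higher at weeks 10 and 14 on few counts: 0, 2 and 0 in the week 6 libraries, 95, 25 and 8 in those of week 10, and 0, 31 and 28 in those of week 14. Also Krt14 (-1.80, adjusted p 0.0319, edgeR) and Krt15 (-2.06, adjusted p 0.0342, edgeR) fell at week 10, against a background of 9.48%.

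Genes that flank the clusters were called in both directions. Of 21, 8 rose and 3 fell at week 10 (background 14.6% and 9.48%), and again 8 and 3 at week 14 (background 24.5% and 8.56%). Snx10, a sorting nexin beside cluster a, rose most (log2 change 3.33 at week 10, adjusted p 0.0038, and 3.00 at week 14, adjusted p 0.0062, edgeR). Ttll6, next to Hoxb13, fell at week 10 (-1.94, adjusted p 0.0067, edgeR), as did Evx1, a homeobox gene next to Hoxa13 (-1.75, adjusted p 0.0132, edgeR). At week 14 Skap1 beside cluster b (2.00, adjusted p 0.0198, edgeR) and Mtx2 beside cluster d (1.91, adjusted p 0.0062, edgeR) rose.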

How the data were processed

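Polyadenylated RNA of 18 distal colon biopsies was sequenced as paired 150 base reads, per the labels' protocols. FastQC, kallisto and build mm10 are named per the submitters' processing notes, with versions not given in the sources used here. The deposited gene tables hold expected counts, which are whole numbers as deposited, and TPM, a length-scaled share, for 16321 genes. The deposited transcript tables hold estimated counts and TPM per transcript, per the file headers, and 97.68% of transcripts matched GENCODE M21 (GRCm38). Nothing in the labels ties libraries to separate litters, so p-values measure the spread between these mice.

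Groups came from the labels. Counts were fitted with edgeR 4.0.16 (R 4.3.3): TMM, filterByExpr (16300 genes kept), quasi-likelihood F-tests, 1 fit of 6 groups, Benjamini-Hochberg adjustment, threshold 0.05. Slopes added a marker score to that fit. Scaled CPM carry TMM factors. Alternatives used DESeq2 1.42.0 and limma 3.58.1. Figures were drawn with matplotlib 3.10.9. The fit was tested on simulated data. The depth of 26495521 to 35497101 counts sets the limit for a count of 0, read as up to 3 counts, which covers counting error only.

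Per library values were given, often for some of the groups only, for paralog 13 genes, the 6 Hox genes of highest mean TPM and at most 6 called Hox genes per comparison, smallest p first. Of each list at most the 3 called genes of largest change per comparison were named, with Cdx1, Cdx2 and Il10 always (Prac1 was not analysed here, and 1 other gene is not reported here). Hoxa2, Hoxa6, the ratios and the transcript splits were added, and the promoters to print were chosen, after values were seen. Members and lists were chosen with earlier results of these data known.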

Additional observations from a re-analysis of the deposited data

How the results depend on the processing

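The number of Hox genes called at week 10 (8 as reported) was 4 with library size alone, 2 in limma on log2(TPM + 0.1), 0 with cage as a term, 3 with the replicate number as a block and 0 to 9 with a library left out. At week 12 (0 as reported) it was 3 in DESeq2, 1 in limma on log2(TPM + 1), 5 with RIN as a covariate, 5 without the 2 libraries of low RIN, 7 without the 3 of lowest smooth muscle score and 0 to 5 with a library left out. At week 14 (5 as reported) it was 0 with library size alone, RIN, cage or without the 2 or 3 libraries named, 16 and 17 in limma on TPM with a pseudocount of 1 and 0.1, and 2 to 13 with a library left out. Across ages (8 as reported) it was 13 in DESeq2, 1 with library size alone, 0 with cage, 5 with the block and 1 to 15 with a library left out. For the smooth muscle slope (8 as reported) it was 14 with library size alone, 16 and 19 in limma on TPM, 0 with RIN or without the 2 or the 3 libraries, 4 with cage and 0 to 9 with a library left out, and for the epithelium slope (0 as reported) it was 8 with library size alone. The cause of these moves was not tested. Counts of alternative runs, here and above, mostly lack the share of all genes called in the same run. They show how far the calls move and are not a result about Hox genes. At week 14 the median TPM change was -1.15 for all genes and -1.14 for Hox genes (log2 of TPM + 0.1). At week 6 and week 8 the count was 0 under every alternative run.

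Directions reversed on the TPM scale (pseudocount 1, then 0.1): at week 14 for Hoxa10 (-0.25 and -0.26), Hoxa9 (-0.96 and -1.03), Hoxd10 (-0.46 and -0.53) and Hoxd13 (-0.81 and -0.82), and for the muscle slopes of Hoxa10 (0.14 and 0.15), Hoxa9 (0.43 and 0.46) and Hoxd10 (0.19 and 0.21). Library size alone reversed Hoxa9 at week 14 (-0.026) and its slope (0.031). Library size alone moved the median log2 change of all genes to -0.26 at week 10, -0.15 at week 12 and -0.56 at week 14. Leaving out the 3 libraries of lowest smooth muscle score, chosen after seeing the data, reversed the slopes of Hoxa13 (-0.090) and Hoxd12 (-0.31). Replicate numbers did not pair the mice: deviations of libraries with the same number correlated at -0.25 to 0.17, so the block with its 3 calls at week 10, 4 at week 14 and 5 across ages shares only a number.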
